A study of Homo sapiens with 6 samples.

Results

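The 58 genes described here encode the machinery of cell division in REH cells, an established human line of B-precursor acute lymphoblastic leukemia: CDK1 and its cyclins, the mitotic kinases, the centromere and kinetochore, the spindle checkpoint, and the proteins of spindle assembly, chromosome structure and cytokinesis. They were taken by symbol from a list of mitosis genes, by a rule that used no values, though earlier results of these data were known. All 58 were found among the 26485 entries of the count table. RNA was sequenced from 3 libraries of cells given 25 µM ML141, an inhibitor of the GTPase CDC42, and from 3 libraries of cells given the solvent DMSO, both for 24 h. The design text states that the cultures came from 3 independent experiments, and both groups are the same cell line with no other treatment or genetic change named. The comparison addressed which transcripts differ between cells given ML141 and cells given DMSO.

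A cell enters mitosis when CDK1, bound to A- and B-type cyclins, is switched on, and the PLK1 and Aurora kinases then drive centrosome, spindle and chromosome events. Kinetochores are built on centromeric chromatin that holds the histone variant CENP-A, and they attach chromosomes to microtubules through the NDC80 complex. The spindle checkpoint holds back the anaphase-promoting complex (APC/C) until every chromosome is attached, after which cohesin is cut, chromosomes part and the cell is cleaved. Transcripts of these genes build up in S and G2 phase, and in resting cells the DREAM complex represses them, while MYBL2 and FOXM1 activate them in dividing cells. The best known element through which this happens is the cell cycle genes homology region (CHR), which lies close to the start site and often sits downstream of boxes bound by the factor NF-Y.

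Promoter windows are shown first because these elements are what many of the genes have in common apart from their place on the list. RefSeq windows on GRCh38.p14, from 250 bases before to 50 bases after each annotated start, were found for 47 of the 58 genes, 54 windows in all since some genes have more than 1 start. The CHR letters TTTGAA, searched on both strands, occurred in 32 of these 54 windows, or 59.3%, against 15.2% of all 35116 windows of this length and 10.4% of the 12660 windows of genes tested here. The NF-Y letters CCAAT, on both strands, occurred in 72.2% of the windows of the mitotic genes and in 34.6% of all windows and 35.2% of those of genes tested. TTCGAA, another form of the CHR that reads the same on both strands, was in 9.26% of the windows of the mitotic genes against 1.45% of all windows and 1.72% of those of genes tested. The E2F-type letters TTCCCGC and TTGGCGC, on both strands, were in 13% and 16.7% of the windows of the mitotic genes in 6.55% and 3.04% of all windows, and in 9.64% and 4.49% of those of genes tested. In the windows below, written 5′ to 3′ on the coding strand, capitals mark matches to any of these 5 motifs on either strand, where neighbouring or overlapping matches run together. CCNB2, HMMR and PLK1 are examples with a small change or none past the test, and NCAPG and CDCA5 are examples with a large one. In these examples CCNB2, HMMR and PLK1 hold NF-Y and no E2F-type letters, and NCAPG and CDCA5 the reverse. That split belongs to the examples picked and is not general to genes with small or large changes. CCNA2 and NCAPH, which also had large changes, had NF-Y letters and no E2F-type letters in their windows.
CCNB2 (chr15:59104896-59105195, plus strand): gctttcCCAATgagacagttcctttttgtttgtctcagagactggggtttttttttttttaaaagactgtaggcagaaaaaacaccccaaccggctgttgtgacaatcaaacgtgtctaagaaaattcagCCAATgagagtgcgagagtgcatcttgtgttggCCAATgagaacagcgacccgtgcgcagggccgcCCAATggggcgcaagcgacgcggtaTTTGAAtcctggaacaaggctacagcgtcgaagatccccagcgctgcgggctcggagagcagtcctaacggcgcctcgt
HMMR (chr5:163460382-163460681, plus strand): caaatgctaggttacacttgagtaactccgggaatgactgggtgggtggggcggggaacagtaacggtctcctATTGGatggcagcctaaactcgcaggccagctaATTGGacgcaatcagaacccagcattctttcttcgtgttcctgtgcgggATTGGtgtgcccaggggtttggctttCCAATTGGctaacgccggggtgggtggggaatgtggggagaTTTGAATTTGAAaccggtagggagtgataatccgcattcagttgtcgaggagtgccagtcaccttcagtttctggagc
PLK1 (chr16:23678639-23678938, plus strand): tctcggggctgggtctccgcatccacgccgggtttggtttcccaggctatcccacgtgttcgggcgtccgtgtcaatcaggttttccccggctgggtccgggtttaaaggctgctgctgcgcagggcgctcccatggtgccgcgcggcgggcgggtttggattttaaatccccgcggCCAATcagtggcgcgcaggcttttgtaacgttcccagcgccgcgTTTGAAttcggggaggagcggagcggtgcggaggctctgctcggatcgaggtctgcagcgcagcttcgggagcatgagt
NCAPG (chr4:17810729-17811028, plus strand): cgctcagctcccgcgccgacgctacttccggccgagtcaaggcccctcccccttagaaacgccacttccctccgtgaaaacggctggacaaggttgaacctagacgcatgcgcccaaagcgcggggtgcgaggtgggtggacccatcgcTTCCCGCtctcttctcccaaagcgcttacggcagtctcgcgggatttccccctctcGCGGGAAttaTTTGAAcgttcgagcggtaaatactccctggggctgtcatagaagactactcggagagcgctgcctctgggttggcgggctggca
CDCA5 (chr11:65083991-65084290, minus strand): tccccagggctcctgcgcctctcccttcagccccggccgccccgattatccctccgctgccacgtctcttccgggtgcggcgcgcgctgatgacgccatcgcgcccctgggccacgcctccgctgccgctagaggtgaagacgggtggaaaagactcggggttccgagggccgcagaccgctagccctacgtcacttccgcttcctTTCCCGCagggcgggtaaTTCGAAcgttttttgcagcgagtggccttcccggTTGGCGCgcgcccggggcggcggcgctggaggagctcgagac
The CCNB2 window held 4 NF-Y matches and 1 CHR match, which began 29 bases before the start. The HMMR window held 5 NF-Y matches and 2 adjoining CHR matches, and the PLK1 window 1 of each. The NCAPG window had 1 CHR match and 2 E2F-type matches, and no NF-Y match. In CDCA5 the CHR match was of the TTCGAA form, between E2F-type letters on either side. A match is a description of the letters and not evidence that a factor is bound.

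**Figure D1:**
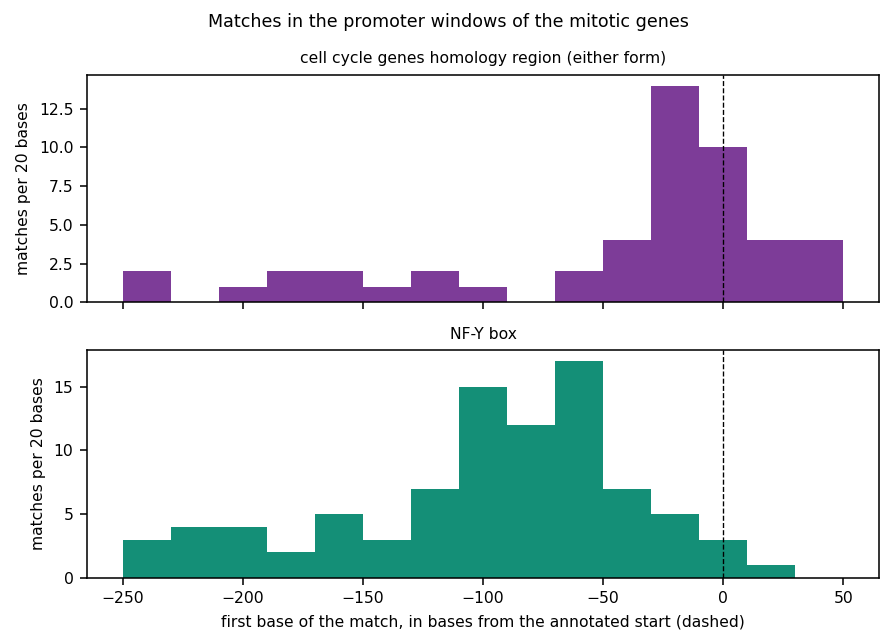
Positions of matches in the 54 promoter windows of the mitotic genes, counted in bins of 20 bases, with the first base of each match measured in bases from the annotated start. Windows of genes with more than 1 start overlap, so some matches are counted more than once; CHR matches gather near the start and NF-Y matches lie mostly upstream of it.

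CHR matches of either form lay close to the start, as the plot of positions in promoter windows shows. A match began within 50 bases of the start in 31 of the 54 windows, or 57.4%, against 5.01% of all windows, a limit chosen after the positions were seen. Genes with and without these letters were set side by side as a description, with no test. The median log2 fold change of the 32 tested genes with either CHR form was -1.04, against -1.13 for the 14 tested genes with windows but no match. For NF-Y letters the medians were -1.04 for 35 tested genes with a match and -1.19 for 11 without one. For TTCCCGC they were -1.10 for 6 with a match and -1.05 for 40 without one. For TTGGCGC they were -1.19 for 7 with a match and -1.03 for 39 without one. CENPI, the gene with the largest fall, had no match to any of the 5 motifs in its window, but that window surrounds a start 2840 bases inside the GENCODE 29 span of the gene, and the outer start was not searched. In all, 6 of the 47 genes (CENPA, CENPI, NUF2, PLK1, PRC1 and SPC25) had no window start within 1000 bases of the annotated 5′ end, a limit chosen after the data were seen.

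Nearly the whole list was lower with ML141. Of the 57 genes tested, 54 fell, 0 rose and 3 did not pass the test (edgeR quasi-likelihood test on counts, 2-sided, Benjamini-Hochberg adjusted p of at most 0.05 over all genes). That is 94.7% lower, against 27.7% of the 11454 genes tested. The fitted log2 fold changes had a median of -1.0 over the 57 genes and 0.02 over all genes tested. More than 2-fold falls were seen in 29 of the 57 genes, against 6.24% of all genes. In 51 of the 57 genes every ML141 library lay below every DMSO library, which was so for 30.7% of all genes. RNA from bulk cells cannot tell fewer cells in G2 and mitosis from less of each mRNA per cell.

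The libraries held 8284299 to 12308039 counts. A single count was worth 0.0754 to 0.130 CPM (counts divided by the library size, scaled by TMM factors, and set to a common total), the unit of all levels below. The precursor B identity of the line showed in its markers, since 13 of the 14 markers were tested (all but VPREB1). The summed level of the list was 9455 to 9713 CPM in ML141 libraries and 7138 to 7813 CPM in DMSO libraries. Of the 13 tested, 9 were higher with ML141, against 26.7% of all genes tested. Marker sums of T cells and of erythroid cells were at most 1.55 CPM and 0.104 CPM in any library. Those of 8 myeloid markers were 29.3 to 31.1 CPM with ML141 and 43.8 to 45.5 CPM with DMSO, and 3 of the 8 had no count in any library. Most of this sum was MPO alone, at 24.8 to 27.6 CPM with ML141 and 41.1 to 41.8 CPM with DMSO. The part of these marker differences in the results was not tested. Scaling moved small changes: 50.9% of the genes that changed were lower under TMM, against 33.9% under library totals, which raised the all-gene median by 0.17 on the log2 scale.

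**Figure D2:**
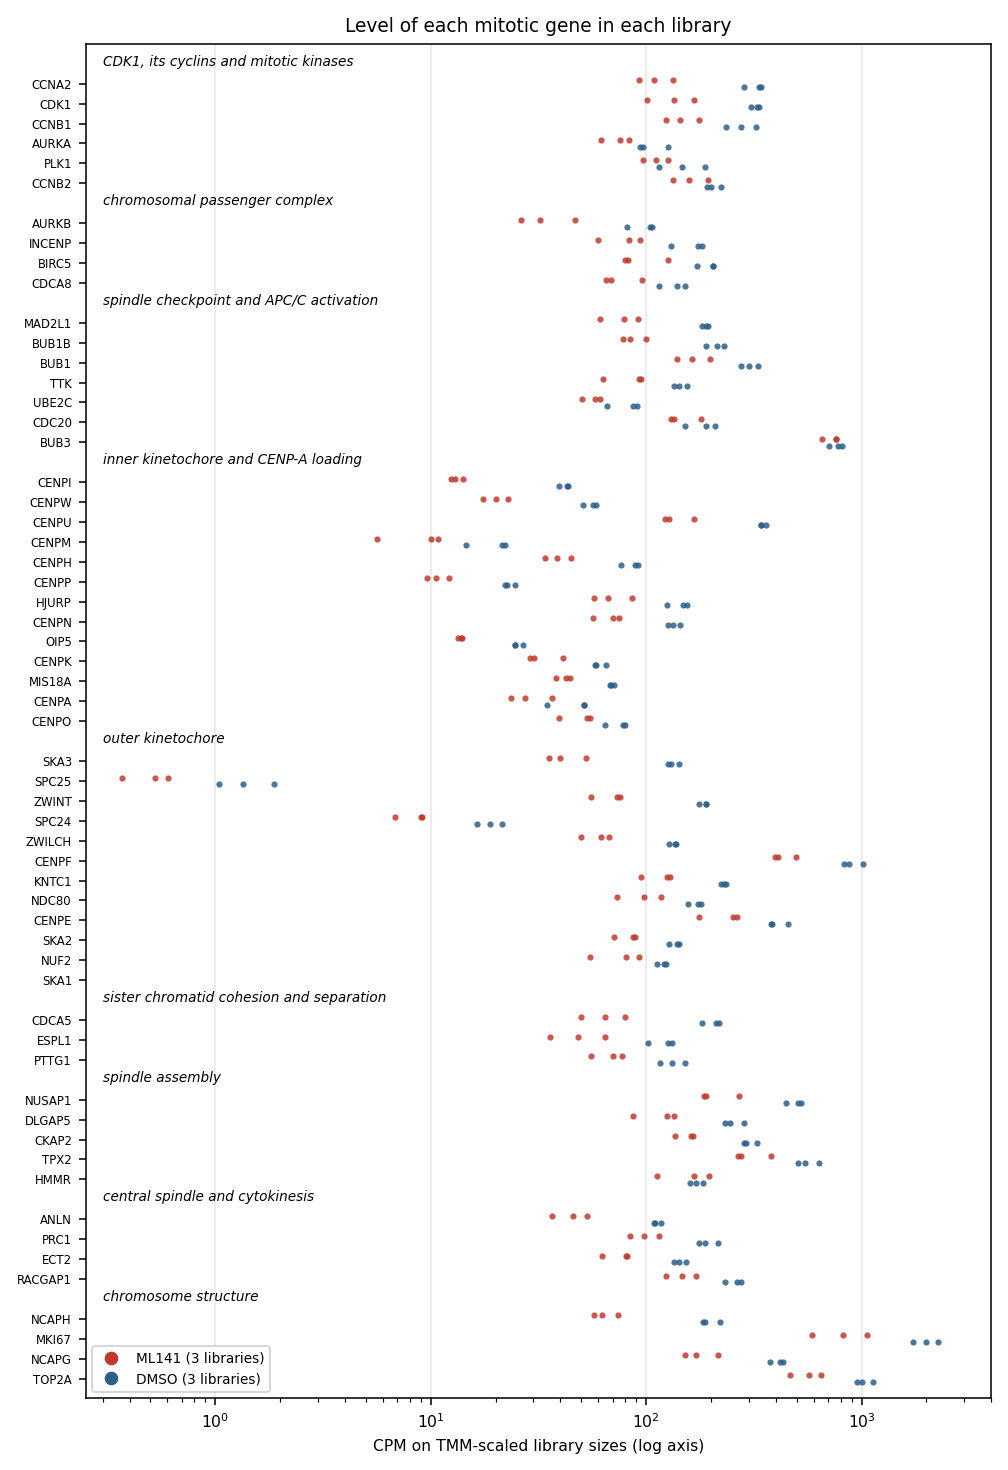
Level of each mitotic gene in each library, in CPM on a log axis, with ML141 libraries in red above DMSO libraries in blue and genes ordered within role groups by fold change. The colors are apart in 51 genes and mixed in BUB3, CDC20, HMMR, CCNB2, PLK1 and CENPA; SKA1, at 0 in every library, has no points.

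CDK1, its cyclins and the kinases PLK1 and AURKA all fell, 6 of 6, with a median log2 fold change of -0.72 and a range of -1.52 in CCNA2 to -0.34 in CCNB2. CCNA2, the A-type cyclin of S phase and early mitosis, had 109, 92.8 and 133 CPM in ML141 replicates 1, 2 and 3, against 284, 343 and 333 CPM in DMSO replicates 1, 2 and 3. Every ML141 library lay far below every DMSO library, with a log2 fold change of -1.52 (SE 0.125, with an edgeR adjusted p of 1.71e-06). CDK1, the kinase that A- and B-type cyclins switch on, had 134, 101 and 166 CPM in ML141 replicates 1, 2 and 3, against 307, 336 and 327 CPM in DMSO replicates 1, 2 and 3, again without overlap, and its log2 fold change was -1.27 (SE 0.142). The B-type cyclins had fitted changes of unlike size, a difference that was not tested. CCNB1, which carries CDK1 into the nucleus at mitotic entry, averaged 147 ± 26.1 CPM in ML141 libraries and 278 ± 44.2 CPM in DMSO libraries (SD, n = 3 each), a log2 fold change of -0.92 (SE 0.136). CCNB2, whose product is found mainly at the Golgi, had 158, 134 and 195 CPM in ML141 replicates 1, 2 and 3, against 199, 223 and 193 CPM in DMSO replicates 1, 2 and 3. ML141 replicate 3 reached the DMSO libraries, and the log2 fold change was -0.34 (SE 0.122, with an edgeR adjusted p of 0.0336).

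PLK1, the polo-like kinase of mitotic entry and spindle formation, had 97.1, 111 and 127 CPM in ML141 replicates 1, 2 and 3, against 115, 187 and 147 CPM in DMSO replicates 1, 2 and 3. Its groups overlapped through DMSO replicate 1, and the log2 fold change was -0.43 (SE 0.152, with an edgeR adjusted p of 0.0319). AURKA, the kinase of centrosomes and spindle poles, averaged 73.8 ± 10.9 CPM in ML141 libraries and 105 ± 17.9 CPM in DMSO libraries (SD, n = 3 each), with a log2 fold change of -0.51 (SE 0.134). The calls of CCNB2 and PLK1 were lost with library totals, at edgeR adjusted p of 0.268 and 0.197. Leaving out single libraries also lost these calls, in some cases with little change in the fitted value. Without ML141 replicate 2, DMSO replicate 1 and DMSO replicate 2, adjusted p for CCNB2 by edgeR was 0.0979, 0.0624 and 0.142. Its log2 fold changes were then -0.21, -0.36 and -0.28. Without ML141 replicate 2, DMSO replicate 2 and DMSO replicate 3, adjusted p for PLK1 by edgeR was 0.0616, 0.194 and 0.0665. The log2 fold changes of PLK1 were then -0.42, -0.24 and -0.45.

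The chromosomal passenger complex corrects wrong attachments and later steers cytokinesis, and its 4 genes all fell without overlap. AURKB, the kinase of the complex, had 26.2, 32.2 and 46.6 CPM in ML141 replicates 1, 2 and 3, against 81.6, 106 and 104 CPM in DMSO replicates 1, 2 and 3, a log2 fold change of -1.47 (SE 0.178, with an edgeR adjusted p of 3.06e-05). INCENP, the scaffold that activates AURKB, had 60.0, 83.5 and 93.4 CPM in ML141 replicates 1, 2 and 3, against 130.4, 181 and 173 CPM in DMSO replicates 1, 2 and 3, a log2 fold change of -1.03 (SE 0.157). Both genes were lower in every ML141 library than in any DMSO library. BIRC5 (survivin), which docks on chromatin, had 79.6, 82.3 and 126 CPM in ML141 replicates 1, 2 and 3, against 173, 204 and 204 CPM in DMSO replicates 1, 2 and 3, with a log2 fold change of -1.01 (SE 0.153). CDCA8 (borealin), which links survivin and INCENP, had 65.4, 68.8 and 95.5 CPM in ML141 replicates 1, 2 and 3, against 114, 152 and 139 CPM in DMSO replicates 1, 2 and 3, with a log2 fold change of -0.82 (SE 0.144). In all 4 genes ML141 replicate 1 was the lowest library and DMSO replicate 1 the lowest of its group.

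Of the 7 genes of the spindle checkpoint and of APC/C activation, 5 fell and 2 did not pass the test. MAD2L1, the MAD2 protein that binds CDC20 to block the APC/C, had 78.8, 61.3 and 92.0 CPM in ML141 replicates 1, 2 and 3, against 193, 189.6 and 182 CPM in DMSO replicates 1, 2 and 3, a log2 fold change of -1.28 (SE 0.124, with an edgeR adjusted p of 5.56e-06). BUB1B, the BUBR1 subunit of the same inhibitory complex, had 83.8, 77.9 and 99.6 CPM in ML141 replicates 1, 2 and 3, against 189, 229 and 213 CPM in DMSO replicates 1, 2 and 3, a log2 fold change of -1.27 (SE 0.107). BUB1 and TTK, the kinases that start checkpoint signalling, and UBE2C, the ubiquitin-conjugating enzyme of the APC/C, fell by 0.86, 0.79 and 0.52 on the log2 scale. The genes that did not pass were BUB3 and CDC20. BUB3, the adaptor that brings BUB1 and BUBR1 to kinetochores, had 765, 659 and 765 CPM in ML141 replicates 1, 2 and 3, against 816, 707 and 775 CPM in DMSO replicates 1, 2 and 3. The groups overlapped, and the log2 fold change of -0.07 had an SE of 0.089 (edgeR adjusted p = 0.529); with library totals it was above 0. CDC20, the activator of the APC/C and target of the checkpoint, had 131, 135 and 179.8 CPM in ML141 replicates 1, 2 and 3, against 152, 209.8 and 190.4 CPM in DMSO replicates 1, 2 and 3. ML141 replicate 3 lay above DMSO replicate 1, and the log2 fold change was -0.31 (SE 0.137, with an edgeR adjusted p of 0.0742). CDC20 was lower in each comparison of libraries with the same replicate number, by -0.22, -0.63 and -0.08 on the log2 scale (ML141 minus DMSO, replicates 1, 2 and 3). Without DMSO replicate 1 CDC20 passed the test, at a log2 fold change of -0.43 (edgeR adjusted p = 0.0237), and likewise without ML141 replicate 3, at -0.47 (0.0141).

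All 13 genes of the inner kinetochore and of CENP-A loading fell. The largest change of the whole list was in CENPI, a subunit of the network that sits on CENP-A chromatin (chromosome X, 101098218 to 101163681, GENCODE 29 on GRCh38). CENPI had 12.4, 13.0 and 14.2 CPM in ML141 replicates 1, 2 and 3, against 39.5, 43.1 and 43.2 CPM in DMSO replicates 1, 2 and 3, a log2 fold change of -1.67 (SE 0.114, with an edgeR adjusted p of 4.58e-07), and its libraries agreed closely within each group. CENPW, a histone-fold subunit that binds centromeric DNA with CENP-T, had 20.2, 17.5 and 23.0 CPM in ML141 replicates 1, 2 and 3, against 50.8, 57.0 and 58.8 CPM in DMSO replicates 1, 2 and 3, a log2 fold change of -1.46 (SE 0.122). CENPA, the histone variant itself, had 27.4, 23.5 and 36.7 CPM in ML141 replicates 1, 2 and 3, against 34.7, 51.6 and 51.4 CPM in DMSO replicates 1, 2 and 3. DMSO replicate 1 lay below ML141 replicate 3, and the log2 fold change was -0.66 (SE 0.180, with an edgeR adjusted p of 0.00835).

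The remaining genes of this group did not overlap between treatments. CENPU, the most abundant of the 13 per kilobase of exon, averaged 139 ± 24.8 CPM in ML141 libraries and 347 ± 10.8 CPM in DMSO libraries (SD, n = 3 each), with a log2 fold change of -1.32 (SE 0.111). CENPH, CENPK, CENPM, CENPN and CENPP fell by 1.13, 0.86, 1.13, 1.00 and 1.10 on the log2 scale. CENPO, with the smallest fitted change of the 13, had 39.6, 54.7 and 53.3 CPM in ML141 replicates 1, 2 and 3, against 64.7, 79.8 and 78.4 CPM in DMSO replicates 1, 2 and 3, without overlap, a log2 fold change of -0.59 (SE 0.132). The loading factors also fell, with log2 fold changes of -1.04 (SE 0.137) for HJURP, the chaperone of CENP-A, -0.88 (SE 0.117) for OIP5 (MIS18 beta) and -0.72 (SE 0.095) for MIS18A. Reads over shared exons cannot be assigned by strand in this library type, which bears on OIP5 (38% of its exon bases overlap OIP5-AS1 on the opposite strand), CENPP (30.2%, IPPK), CENPO (22.9%, ADCY3), CENPU (17.3%, PRIMPOL) and CENPN (14.5%, CMC2).

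In the outer kinetochore 11 of 11 tested genes fell. SKA3, of the complex that tracks microtubule ends, had 39.6, 35.4 and 52.5 CPM in ML141 replicates 1, 2 and 3, against 126, 142 and 129.96 CPM in DMSO replicates 1, 2 and 3, a log2 fold change of -1.64 (SE 0.132, with an edgeR adjusted p of 1.42e-06). Its partner SKA2 fell by 0.74 on the log2 scale (SE 0.099). The remaining subunit, SKA1, had no count in any of the 6 libraries, against 137 CPM for SKA2 and 133 CPM for SKA3 on average in DMSO libraries. Counting error alone would allow up to 0.226 to 0.389 CPM per library, a limit of 3 counts, but whether the authors' annotation and counting could assign reads to SKA1 is not known, so the 0 is not read as its level. The gene did not pass the low-count filter and was not tested.

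The 4 genes of the NDC80 complex, the main microtubule coupler, all fell. NDC80, which forms its microtubule-binding end with NUF2, averaged 96.2 ± 22.0 CPM in ML141 libraries and 170.4 ± 12.7 CPM in DMSO libraries (SD, n = 3 each), a log2 fold change of -0.83 (SE 0.140). NUF2 had 80.9, 54.7 and 92.7 CPM in ML141 replicates 1, 2 and 3, against 113, 124 and 121 CPM in DMSO replicates 1, 2 and 3. The groups did not overlap, and its log2 fold change of -0.65 (SE 0.153) was the smallest of the 11. SPC24, of the end that binds the kinetochore, averaged 8.34 ± 1.29 CPM in ML141 libraries and 18.9 ± 2.47 CPM in DMSO libraries (SD, n = 3 each), with a log2 fold change of -1.18 (SE 0.163). SPC25, its partner, was close to the detection limit. It had 4, 7 and 7 counts in ML141 replicates 1, 2 and 3, against 8, 18 and 14 counts in DMSO replicates 1, 2 and 3. The groups did not overlap, the log2 fold change was -1.49 (SE 0.388, with an edgeR adjusted p of 0.00635), and the gene was left out by the stricter low-count filter.

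The other genes serve the outermost layer and its motors. ZWINT, which helps to recruit the complex of ROD, ZW10 and Zwilch, changed by -1.44 (SE 0.113), ZWILCH by -1.17 (SE 0.109) and KNTC1 (ROD) by -0.98 (SE 0.109) on the log2 scale. CENPF, a large protein of the kinetochore corona, had a log2 fold change of -1.06 (SE 0.106). CENPE, the kinesin that brings chromosomes to the spindle equator, had a log2 fold change of -0.81 (SE 0.136).

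**Figure D3:**
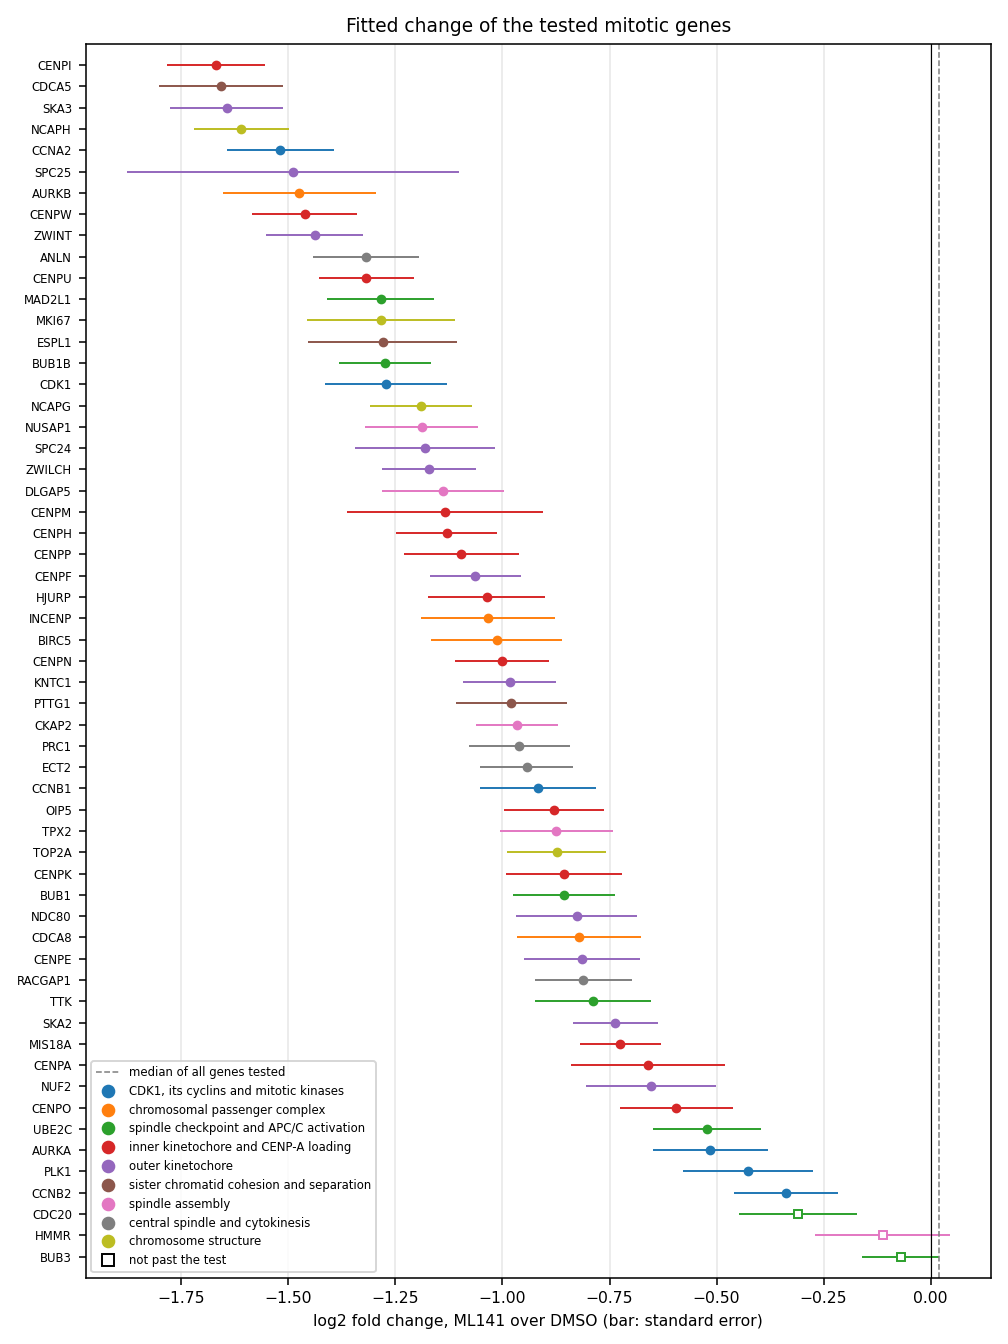
Log2 fold change, ML141 over DMSO, of the 57 tested mitotic genes with its standard error, ordered by size and colored by role; open squares mark BUB3, HMMR and CDC20, which did not pass the test. Under TMM scaling the values run from -1.67 in CENPI to -0.07 in BUB3, and the dashed line is the median of all genes tested, 0.02.

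The 3 genes of sister chromatid cohesion and separation fell without overlap. CDCA5 (sororin), which protects cohesin from S phase to mitosis, had 49.7, 64.2 and 79.9 CPM in ML141 replicates 1, 2 and 3, against 182, 211 and 218 CPM in DMSO replicates 1, 2 and 3, a log2 fold change of -1.66 (SE 0.144, with an edgeR adjusted p of 2.61e-06). ESPL1 (separase), the protease that cuts cohesin, had 35.8, 48.5 and 64.5 CPM in ML141 replicates 1, 2 and 3, against 102, 127 and 132 CPM in DMSO replicates 1, 2 and 3, a log2 fold change of -1.28 (SE 0.174). PTTG1 (securin), the inhibitor of separase, had 70.0, 55.4 and 76.9 CPM in ML141 replicates 1, 2 and 3, against 116, 151 and 132 CPM in DMSO replicates 1, 2 and 3, a log2 fold change of -0.98 (SE 0.129). Reads of PTTG1 may be split with its near-identical relatives PTTG2 and PTTG3P. The difference between the protease and its inhibitor was not tested.

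Of the 5 spindle genes 4 fell. NUSAP1, which bundles microtubules near chromosomes, had 186, 190.3 and 269.9 CPM in ML141 replicates 1, 2 and 3, against 444, 524 and 505 CPM in DMSO replicates 1, 2 and 3, a log2 fold change of -1.19 (SE 0.132, with an edgeR adjusted p of 1.59e-05). DLGAP5 (HURP), which stabilises kinetochore fibers, had 125, 86.8 and 135 CPM in ML141 replicates 1, 2 and 3, against 233, 283 and 245 CPM in DMSO replicates 1, 2 and 3, a log2 fold change of -1.14 (SE 0.142). TPX2, the activator of AURKA, had a log2 fold change of -0.87 (SE 0.132), and CKAP2, a microtubule-associated protein of spindle poles, of -0.97 (SE 0.095). HMMR, a microtubule-binding protein of spindle poles and hyaluronan receptor, did not pass the test, with 166, 113 and 197 CPM in ML141 replicates 1, 2 and 3, against 159, 183 and 171 CPM in DMSO replicates 1, 2 and 3. ML141 replicate 3 was the highest of the 6 libraries and ML141 replicate 2 the lowest, so the ML141 libraries enclosed the DMSO group, and the log2 fold change was -0.11 (SE 0.157, with an edgeR adjusted p of 0.57). It was above 0 with library totals, and 1 library set its sign, since it was 0.09 without ML141 replicate 2 (edgeR adjusted p = 0.467). Of the exon bases of NUSAP1 72.8% are also annotated to AC087721.2 on its own strand. AC087721.2 is not an entry of the count table, and how the authors assigned reads over these bases is not known.

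The 4 genes of the central spindle and cytokinesis fell without overlap. ANLN (anillin), the scaffold of the contractile ring, had 45.6, 36.4 and 53.0 CPM in ML141 replicates 1, 2 and 3, against 108, 117 and 111 CPM in DMSO replicates 1, 2 and 3, a log2 fold change of -1.32 (SE 0.123, with an edgeR adjusted p of 4.32e-06). PRC1, which crosslinks the antiparallel microtubules of the central spindle, had 98.3, 84.2 and 115 CPM in ML141 replicates 1, 2 and 3, against 175, 216 and 188 CPM in DMSO replicates 1, 2 and 3, a log2 fold change of -0.96 (SE 0.118). ECT2, the exchange factor that activates RHOA at the cleavage site, had 81.6, 62.4 and 80.3 CPM in ML141 replicates 1, 2 and 3, against 135, 154 and 142 CPM in DMSO replicates 1, 2 and 3, a log2 fold change of -0.94 (SE 0.109). RACGAP1, the GTPase-activating subunit of centralspindlin that recruits ECT2 and acts on RAC1 and CDC42 in vitro, had 146, 123 and 170.04 CPM in ML141 replicates 1, 2 and 3, against 232, 275 and 264 CPM in DMSO replicates 1, 2 and 3, a log2 fold change of -0.81 (SE 0.114). PRC1 shares 65.2% of its exon bases with AC068831.7 on its own strand, which is likewise not an entry of the count table.

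The 4 genes of chromosome structure also fell without overlap. NCAPH, the kleisin of condensin I, had 57.6, 62.1 and 74.0 CPM in ML141 replicates 1, 2 and 3, against 188, 221 and 183 CPM in DMSO replicates 1, 2 and 3, a log2 fold change of -1.61 (SE 0.111, with an edgeR adjusted p of 4.94e-07). NCAPG, a HEAT-repeat subunit of the same complex, had 171, 151 and 215 CPM in ML141 replicates 1, 2 and 3, against 375, 433 and 418 CPM in DMSO replicates 1, 2 and 3, a log2 fold change of -1.19 (SE 0.119); 35.0% of its exon bases overlap LCORL on the opposite strand. MKI67 (Ki-67), which coats mitotic chromosomes and is the usual marker of proliferating cells, had 591, 821 and 1057 CPM in ML141 replicates 1, 2 and 3, against 1738, 2273 and 1998 CPM in DMSO replicates 1, 2 and 3, a log2 fold change of -1.28 (SE 0.173). TOP2A, the topoisomerase that untangles sister chromatids, had 570.1, 468 and 649.7 CPM in ML141 replicates 1, 2 and 3, against 954, 1129.8 and 1007 CPM in DMSO replicates 1, 2 and 3, a log2 fold change of -0.87 (SE 0.115).

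The size of the change was set against level and length across the 57 tested genes. Spearman's rho between the log2 fold change and the DMSO level per kilobase of exon was 0.01, and that with exon length was -0.02, as a description over 57 genes measured in the same 6 libraries. In DMSO the levels per kilobase ran from 1.05 CPM per kb for SPC25 to 200.1 for NUSAP1, 179 for TOP2A and 174 for CENPU, and the ranges of neighbours among these highest 3 overlapped (SD 17.0, 15.7 and 5.39 CPM per kb, n = 3). In ML141 libraries TOP2A was at 97.7, NUSAP1 at 87.8 and CENPU at 69.7 CPM per kb.

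The libraries of each group differed among themselves in a common way. The summed level of the 57 genes was 6823, 6419 and 8521 CPM in ML141 replicates 1, 2 and 3, against 12867, 15139 and 13968 CPM in DMSO replicates 1, 2 and 3. ML141 replicate 3 was the highest of its group in 52 of the 57 genes, and DMSO replicate 1 the lowest of its group in 47. These counts were not made over all genes tested, so they are not read as a trait of the mitotic genes. With the same replicate numbers set against each other, the median log2 difference, ML141 minus DMSO, was -0.92, -1.30 and -0.82 for replicates 1, 2 and 3, and 56, 57 and 55 of the 57 genes were below 0. The exceptions were HMMR in replicates 1 and 3, and CCNB2 in replicate 3. Among all genes tested 49.1%, 49.3% and 50.3% were below 0 in these comparisons.

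**Figure D4:**
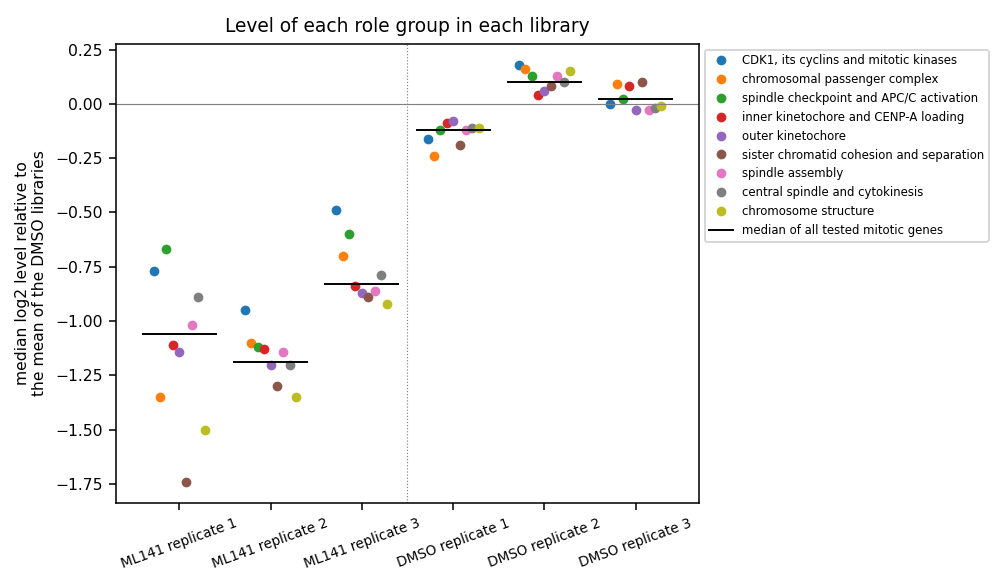
Median log2 level of each role group in each library, relative to the mean of the DMSO libraries, with black bars for the median of all 57 tested mitotic genes (-1.06, -1.19 and -0.83 in ML141 replicates 1, 2 and 3; -0.12, 0.10 and 0.02 in DMSO replicates 1, 2 and 3). Each role group lies lower in every ML141 library than in any DMSO library, and the role groups spread most widely in ML141 replicate 1.

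The plot of role groups by library shows that groups kept apart by treatment but not by the same distance. In ML141 replicate 1 the medians ran from -1.74 for cohesion and separation and -1.50 for chromosome structure to -0.77 for CDK1, cyclins and kinases and -0.67 for the checkpoint, on the log2 scale relative to DMSO. In ML141 replicate 2 the range was narrower, from -1.35 for chromosome structure to -0.95 for CDK1, cyclins and kinases. Replicate differences were nearly equal for some genes and wide for others. CENPI differed by -1.67, -1.73 and -1.60 in replicates 1, 2 and 3 on the log2 scale, and OIP5 by -0.87, -0.83 and -0.93. HMMR differed by 0.06, -0.70 and 0.20, DLGAP5 by -0.90, -1.71 and -0.86 and AURKA by -0.31, -1.02 and -0.20, each with its lowest value in replicate 2. With both replicates numbered 2 left out, CCNB2, PLK1, AURKA, CENPA and SPC25 no longer passed the test, and 49 of 57 genes were lower.

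Other genes of mitosis, listed with none of the 58 among them, were lower in a smaller share. Of 126 tested, 89 fell (70.6%) and 8 rose, with a median log2 fold change of -0.51. Among all genes tested 27.7% fell and 26.7% rose. Centrosome and spindle proteins came closest, with 22 of 24 lower and 1 higher. CEP152 and PLK4, which start centriole duplication, had log2 fold changes of -1.32 (SE 0.104) and -1.24 (SE 0.111), and HAUS8, of the augmin complex, of -1.46 (SE 0.129). NUMA1, which anchors spindle poles, rose by 0.59 on the log2 scale (SE 0.105). Of 21 further centromere and kinetochore genes 16 fell and 1 rose. TRIP13, the ATPase that takes MAD2 complexes apart, averaged 32.4 ± 6.48 CPM in ML141 libraries and 106 ± 5.93 CPM in DMSO libraries (SD, n = 3 each), a log2 fold change of -1.71 (SE 0.129), DSN1 changed by -0.97 (SE 0.093) and ZW10 by -0.78 (SE 0.087). MAD1L1, the kinetochore anchor of MAD2, rose by 0.34 on the log2 scale (SE 0.121), a call that was lost without any of ML141 replicate 2, ML141 replicate 3, DMSO replicate 1 or DMSO replicate 2 (edgeR adjusted p of 0.082, 0.0608, 0.118 and 0.0774).

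Genes that control entry into mitosis fell in 12 of 16 cases and rose in 0. CDC25A, the phosphatase that activates CDK complexes at the start of S phase and at mitosis, averaged 12.2 ± 2.28 CPM in ML141 libraries and 60.4 ± 4.40 CPM in DMSO libraries (SD, n = 3 each), a log2 fold change of -2.30 (SE 0.138). MASTL, the Greatwall kinase that protects CDK1 substrates from dephosphorylation, changed by -1.53 (SE 0.103), and WEE1, which inhibits CDK1, by -1.14 (SE 0.094), on the log2 scale. Among 13 transcription factors and DREAM subunits 9 fell and 1 rose. MYBL2, the B-MYB activator, averaged 73.9 ± 22.7 CPM in ML141 libraries and 314 ± 30.9 CPM in DMSO libraries (SD, n = 3 each), a log2 fold change of -2.09 (SE 0.184, with an edgeR adjusted p of 2.86e-06). FOXM1, which follows it late in G2, averaged 88.7 ± 22.2 CPM in ML141 libraries and 209 ± 33.0 CPM in DMSO libraries (SD, n = 3 each), a log2 fold change of -1.24 (SE 0.164). TFDP1, the partner of E2F factors, changed by -1.48 (SE 0.135) and RBBP4, a histone-binding subunit, by -0.75 (SE 0.074) on that scale. LIN37, a DREAM subunit needed for repression, rose by 1.06 on the log2 scale (SE 0.189), from low counts (85, 103 and 83 in ML141 replicates 1, 2 and 3, against 29, 30 and 42 in DMSO replicates 1, 2 and 3).

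Of 20 genes of cohesin, condensin and shugoshins 14 fell and 2 rose. ESCO2, the acetyltransferase that establishes cohesion in S phase, averaged 22.3 ± 6.34 CPM in ML141 libraries and 119.6 ± 8.08 CPM in DMSO libraries (SD, n = 3 each), a log2 fold change of -2.42 (SE 0.159), and the condensin genes SMC2 and NCAPD3 changed by -1.18 (SE 0.091) and -1.44 (SE 0.111), log2 values as well. The 2 that rose on the log2 scale, MAU2 by 0.55 (SE 0.095) and NIPBL by 0.23 (SE 0.080), encode the loader that puts cohesin on DNA. The call of NIPBL was lost without DMSO replicate 1 or DMSO replicate 3 (edgeR adjusted p of 0.116 and 0.121). Of 17 genes of the APC/C and its regulators 9 fell and 1 rose. FBXO5 (EMI1), its inhibitor, changed by -1.14 (SE 0.104), the subunit gene ANAPC15 by -1.09 (SE 0.121), and the subunit gene ANAPC16 rose by 1.02 (SE 0.097), all as log2 fold changes.

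The cleavage furrow and abscission list had 7 of 15 genes lower and 2 higher. With library totals 4 were lower and 4 higher, while of all 11454 genes tested 2302 (20.1%) were lower and 4494 higher. MYH10, a non-muscle myosin heavy chain, changed by -1.02 (SE 0.098), KIF23, the kinesin subunit of centralspindlin, by -1.04 (SE 0.147) and CDC42, whose product ML141 inhibits, by -0.46 (SE 0.075). TSG101, a subunit of the ESCRT-I complex, rose by 0.53 on the log2 scale (SE 0.130) and MYH9, the other non-muscle myosin of the list, by 0.30 (SE 0.090). The call of MYH9 was lost without DMSO replicate 1 (edgeR adjusted p = 0.0689), and that of TSG101 without both replicates numbered 3 (0.0857).

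**Figure D5:**
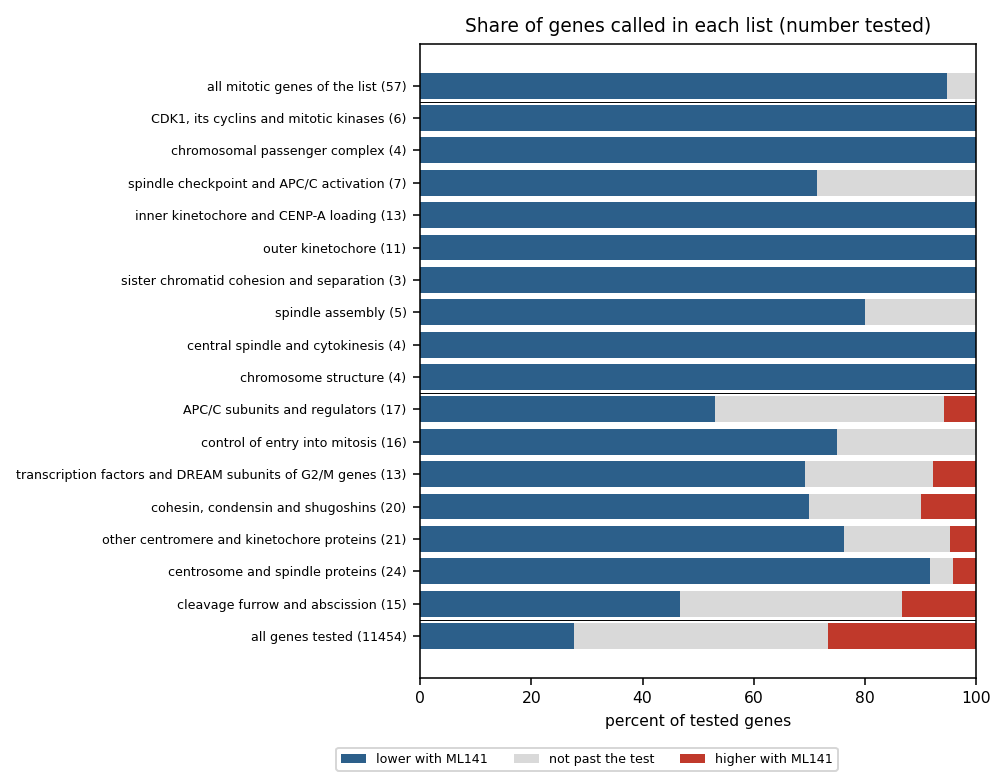
Percent of tested genes that were lower, not past the test, or higher with ML141, for the 57 tested mitotic genes, their 9 role groups, 7 lists of other mitosis genes and all 11454 genes tested, with the number tested in parentheses. The mitotic genes reach 94.7% lower, all genes tested 27.7%, and the APC/C and cleavage furrow lists hold the lowest shares among the mitosis lists, 52.9% and 46.7%.

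In the authors' deposited table, which holds their own comparison, 54 of 57 genes were lower at an adjusted p of at most 0.05 and BUB3, CDC20 and HMMR were again not called. The median log2 fold change of the 57 genes in the authors' deposited table was -1.01.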

How the data were processed

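Libraries were made with a TruSeq RNA v2 kit, per the labels' protocols, which does not mark strand. The authors deposited raw counts per gene symbol, with a log2 fold change and an adjusted p-value of their own comparison. The submitters' processing notes name bcl2fastq 2.19, Trimmomatic, Bowtie2, Picard, featureCounts, DESeq2 and hg38, with settings not given in the sources used here. The deposited counts were tested with edgeR 4.0.16 (quasi-likelihood, TMM, filterByExpr with a minimum count of 10, group as the only term, R 4.3.3), with 2-sided p-values adjusted over all 11454 genes tested. Positions and exon lengths were taken from GENCODE 29 and promoter windows from RefSeq, both GRCh38. The genes and lists were chosen with earlier results of these data known. Values per library were given for the 2 most and the least changed genes of each role group (all in groups of 4 or fewer), and for those that overlapped or did not pass. In other lists the 3 genes of smallest p, up to 2 that moved the opposite way, and CDC42, MYBL2 and FOXM1 were named. Alternatives were DESeq2 1.42.0 and limma-voom (limma 3.58.1), other scalings and filters, a replicate block and left-out libraries. No libraries agreed within sampling noise (chi-square per degree of freedom of 3.02 to 19.5 within groups). In data simulated over 11454 genes with 200 set to change, the test recovered 78.8% of changes of log2 size 1 and 44.4% of size 0.5. In the real data 6230 genes were called, so the adjustment was stricter in the simulation. These shares therefore do not give the power of the real comparison. The limit of 3 counts given for SKA1 covers counting error only, while each SE and SD also includes the spread between libraries.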

Additional observations from a re-analysis of the deposited data

How the results depend on the processing

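The count of mitotic genes lower, 54 of 57, was 49 to 55 over the alternatives, 0 were higher under any of them, and their median log2 fold change was -0.83 (library totals) to -1.10 (without both replicates numbered 3). With upper-quartile factors and with library totals CCNB2 and PLK1 were lost. Without both replicates numbered 2, CCNB2, PLK1, AURKA, CENPA and SPC25 were lost. Leaving out libraries gave 1920 to 3195 genes higher among all tested, against 3059, and 3 to 6 of the 6 genes of CDK1, its cyclins and kinases lower. Genes higher in the other lists were few. Leaving out libraries gave 1 to 2 in the APC/C list, 1 to 3 in cohesin and condensin, 0 to 1 in the other kinetochore list, 1 to 2 in the centrosome list and 0 to 3 in the cleavage list. Of the 17 genes in the APC/C list, 4 were higher with upper-quartile factors, 4 with library totals and 2 with the replicate block, against 1. Among all 11454 genes tested, 3843, 4494 and 3441 were higher under these 3 settings, against 3059, so these counts are not a trait of the list. With library totals 4 cohesin and condensin genes were higher, and in the cleavage list 4 were lower and 4 higher. The cause was not tested.

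Same-numbered libraries share a tag in the sample descriptions, and the design text names 3 independent experiments, but no label says that a tag marks a shared experiment. Pairing was therefore not assumed in the main fit. Same-numbered deviations from the group means correlated at 0.343, 0.075 and 0.16 for replicates 1, 2 and 3. These values are all above 0 and do not settle whether the libraries were paired. With the replicate block 55 mitotic genes were lower, CDC20 passing at an edgeR adjusted p of 0.00835, and among all genes 3538 were lower and 3441 higher. Depth limits SPC25, which the stricter filter left out, at 4 to 18 counts per library.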
